A study of Mus musculus with 189 samples.

Results

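This report describes the 2-cell and 4-cell mouse embryos of a single-cell qPCR series, with 3-cell embryos, caught during the second cleavage, between them. The members were chosen by stage from the sample titles, which gave 40 of the 189 samples (21 of 2-cell, 7 of 3-cell and 12 of 4-cell embryos). Transcripts of 192 genes, most of them chromatin regulators and lineage markers, were measured by reverse transcription and qPCR on a microfluidic chip, and 156 genes passed the quality call that the authors deposited with the data. Embryos came from superovulated F1 females of a C57BL/6 by DBA/2 cross mated to C57BL6 males and grew in KSOMaa at low oxygen, with no treatment that differed between the stages. Blastomeres of one embryo share their origin, so they were averaged, which gave 8 units of 2-cell, 3 of 3-cell and 6 of 4-cell embryos. One of the 2-cell units pooled 11 blastomeres whose embryo the titles do not give. The other units are named as in the titles and were each taken as 1 embryo, although unit A.e1 averages 3 samples (A.e1, A.e1b1 and A.e1b2) that the titles do not tie to 1 embryo with certainty.

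At the 2-cell stage the mouse embryo carries out the main wave of activation of its own genome and clears much of the RNA that the oocyte left behind. By the 4-cell stage most transcripts are embryonic, while the lineages of the blastocyst, the outer trophectoderm, the inner cell mass and later the primitive endoderm, have not formed. Enzymes that write and erase histone and DNA methylation are stored in the oocyte or made anew in this window, and Polycomb proteins, grouped in the complexes PRC1 and PRC2, keep developmental genes silent.

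Each level is given as a log2 value, 30 minus the threshold cycle (Ct), less the mean of the same quantity for the control genes Hnrnpr, Ssu72 and Ube2e1. A difference of 1 is 1 PCR cycle. Levels of different genes were not compared, since each has its own assay. An undetected gene is deposited at a Ct of 30, so its level is only an upper bound that depends on how much RNA the sample held. Of the 6240 values of the members, 756 (12.12%) were undetected. In a unit average or a whole embryo, fewer expressing blastomeres and less RNA in each cannot be told apart. For embryos taken apart, detection in single blastomeres is given for some genes.

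The 2-cell samples fell into sets that stood apart. Of the 21 samples, 18 carry an A in the title and are labelled blastomeres, and they make up 5 of the 8 units. The other 3 are whole embryos, e1 to e3. What the A stands for is not given in the sources used here, and it cannot be told apart from the labelled kind of sample. Titles A.e1, A.e2 and A.e3 name no blastomere, like those of the whole embryos, so their kind rests on the label alone. The A-titled samples had a mean control gene Ct of 15.7 to 18.8 against 13.7 to 16.1 in the other 3, and 8 to 32 undetected genes against 9 to 16. At the 4-cell stage, embryos e1 to e3 were taken whole, and e4 to e6 were taken apart into 9 blastomeres. In one fit across all stages, 35 of the 156 genes (22.4%) differed between A-titled and other 2-cell units, 12 of them higher (7.69%) and 23 lower (14.7%) in the A-titled units. For a gene that passed between 2-cell and 4-cell units, the difference is therefore also given without the A-titled samples. This was done where it was then smaller by over 1.5 times or turned in sign. Genes that did not pass are mostly given with all units only, and some of them, such as Gata3, also turned in sign.

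**Figure D1:**
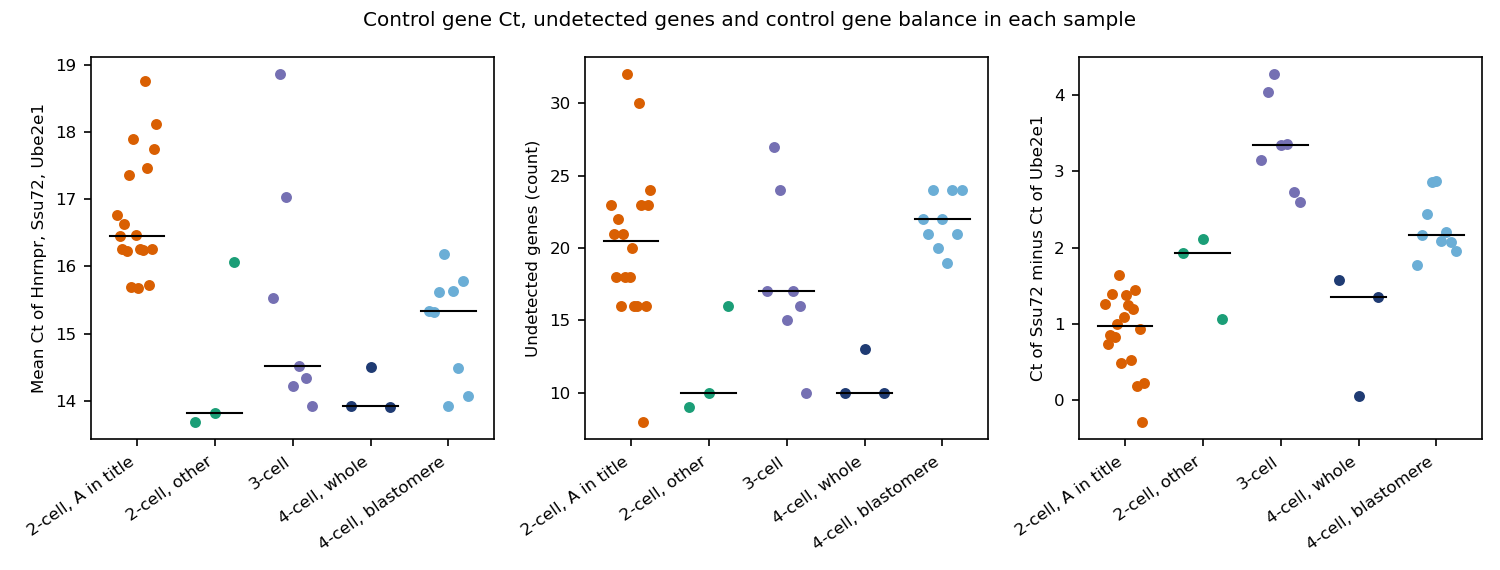
Mean Ct of the 3 control genes (left, cycles), number of undetected genes among 156 (middle) and Ct of Ssu72 minus Ct of Ube2e1 (right, cycles) in each of the 40 samples, one point a sample, with a bar at the median of each set. A-titled 2-cell samples have the highest median control Ct (16.5), and the 7 samples of 3-cell embryos have the highest median on the right (3.34), at 2.59 to 4.26.

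The first comparison asked which transcripts changed between the 2-cell and the 4-cell stage. With all units, 51 of 156 genes (32.7%) passed an adjusted p of 0.05 in limma, 11 higher (7.05%) and 40 lower (25.6%) at the 4-cell stage, and the median difference over all genes was -0.43. Transcripts of the trophectoderm regulator Cdx2, of the keratin Krt8, of the homeobox gene Dlx1 and of the H3K27 demethylase Kdm6b fell, and those of the PRC1 ubiquitin ligase Ring1 and of the endoderm factor Gata6 rose. Without the A-titled samples, 6 genes (3.85%) passed, all of them lower: Cdx2, Dlx1, Kdm6b, Setd6, Phc2 and Kdm2a. The first 5 were also among the 51. This fit set 3 whole 2-cell embryos against 3 whole 4-cell embryos and 3 taken apart. The kind of sample therefore still differed between the stages. Of the 40 lower genes 39 kept their sign in that fit, and of the 11 higher genes 10 did, but 20 and 4 of them reached an unadjusted p under 0.05. The difference was smaller by over 1.5 times, or turned, in 8 of the 11 higher and 15 of the 40 lower genes. Of the 51 genes 28 were called whichever 2-cell or 4-cell unit was left out.

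**Figure D2:**
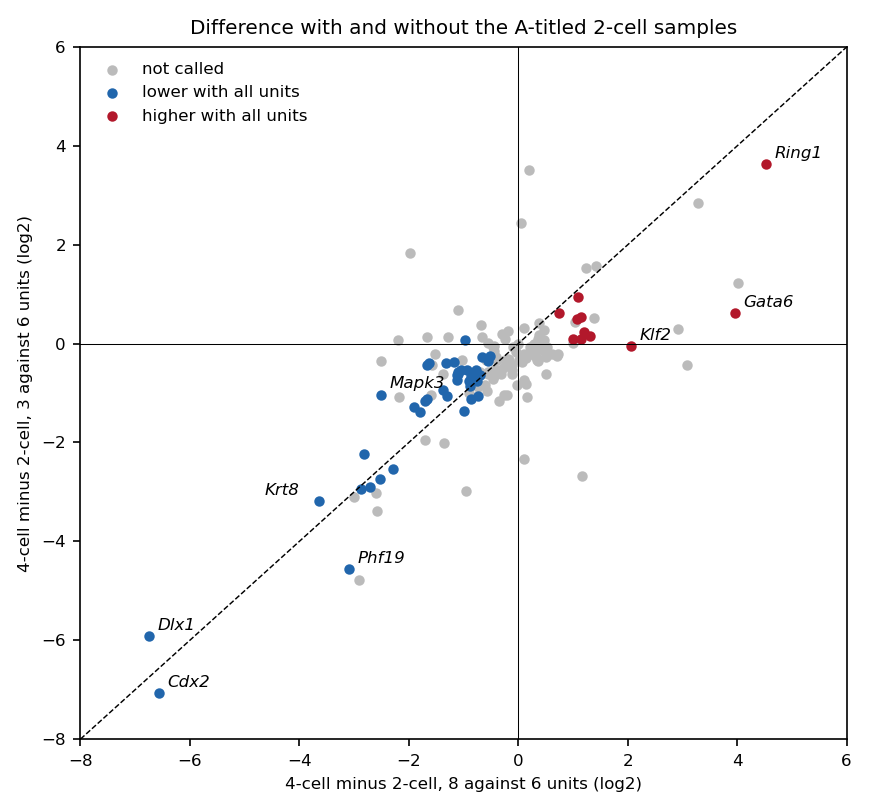
Difference between 4-cell and 2-cell units (log2) for the 156 genes, with all 8 2-cell units on the horizontal axis and with the 3 units lacking an A in the title on the vertical axis. Dlx1 and Cdx2 lie near the dashed line of equality, while Gata6 (3.97 against 0.62) and Klf2 (2.06 against -0.05) lie far below it.

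Among genes known from the trophectoderm, Cdx2, Krt8, Id2 and Krt19 fell. Cdx2, which specifies trophectoderm in the blastocyst, was detected in 13 of 21 samples of 2-cell embryos, in 5 of 7 of 3-cell embryos and in 2 of 12 of 4-cell embryos. Its level ran from -12.07 through a median of -7.08 to -5.48 in the 2-cell units and from -16.09 through -15.25 to -9.00 in the 4-cell units. In 5 of the 6 4-cell embryos no sample gave a signal, whereas in embryo e5 2 of 3 blastomeres did, at -5.72 and -5.21, so the stages overlapped. The 3-cell embryos stood at -6.94, -8.99 and -8.24, within the range of the 2-cell units. Cdx2 was lower at the 4-cell stage (difference -6.56 on the log2 scale, SE 1.22, adjusted p = 7.7e-05), and the difference was -7.07 (adjusted p = 0.0091) without the A-titled samples and -8.57 (adjusted p = 0.0023) between whole embryos, where no other gene passed. Since most 4-cell values were bounds, the size depends on where undetected values are placed. With every value below -10 set to -10 the difference was -2.29 (adjusted p = 0.019).

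Krt8, an epithelial keratin of the trophectoderm, ran from -8.56 through -7.27 to -5.07 in the 2-cell units and from -14.67 through -10.002 to -8.58 in the 4-cell units. The stages did not overlap, which held for 3 of the 156 genes (1.92%), namely Krt8, Sfmbt1 and Setd6. For Krt8 whole 2-cell embryo e1, at -8.56, nearly met whole 4-cell embryo e3, at -8.58. The 4-cell embryos taken whole stood at -8.89, -9.56 and -8.58, and those taken apart at -14.67, -10.44 and -12.00. Blastomeres b1 and b2 of e4, b3 of e5, and b2 and b4 of e6 gave no signal, so the size of the difference rests partly on upper bounds. The Krt8 difference was -3.64 (SE 0.89, adjusted p = 0.0015), and -3.19 (adjusted p = 0.12) without the A-titled samples. Id2, an inhibitor of basic helix-loop-helix factors, was detected in every 2-cell sample, within a narrow range of -2.63 to -1.30 over the units. In the 4-cell embryos it stood at -3.73, -2.80 and -1.65 in those taken whole and at -8.97, -5.79 and -5.78 in those taken apart, of which 3 of 9 blastomeres gave no signal. Its difference was -2.88 (SE 0.95, adjusted p = 0.018), -0.89 between whole embryos alone and -4.89 between blastomere samples alone. Krt19, another keratin, was detected in 3 of 21 2-cell samples and in none of the 3- or 4-cell samples, and its difference (-2.52, adjusted p = 0.048) did not pass once values below -10 were set to -10 (-0.66, adjusted p = 0.20) or without 2-cell embryo e3 (-1.45, adjusted p = 0.17).

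Of the 11 trophectoderm genes, 4 were lower, 1 was higher and 6 did not pass, where over all genes 25.6% were lower and 7.05% higher. The list median, -1.28 against -0.43 over all genes, is the value of Elf5, which gave no signal in any sample. It therefore follows the control gene Ct alone and measures no fall of the list. Without the A-titled samples 1 of the 11, Cdx2, was called. The one that rose was Tead4, the DNA-binding partner of the Hippo pathway factor Yap1. Its 2-cell units ran from -2.56 to 0.42 and its 4-cell units from -0.68 to 0.83, so most values overlapped, and the difference was 1.09 (SE 0.39, adjusted p = 0.027). Yap1 itself was lower by a difference of -1.11 (SE 0.25, adjusted p = 0.00081), and of -0.63 (adjusted p = 0.20) without the A-titled samples. In the Hippo list of 4 genes Lats2 (1.04, adjusted p = 0.27) and Nf2 (0.07, adjusted p = 0.81) did not pass. Elf5, a trophoblast factor, was not detected in any of the 40 samples.

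The annotated upstream sequences of Cdx2, Krt8 and Id2 are shown because these genes fell together, as the 250 bases before the RefSeq start on build GRCm38.p6. Each was searched on both strands for the TATA box, written TATAAA, for the CCAAT box by those same letters, and for the GC box, written GGGCGG. No matches overlapped, and they are in capitals.
Cdx2, chr5:147307250-147307499 (minus strand): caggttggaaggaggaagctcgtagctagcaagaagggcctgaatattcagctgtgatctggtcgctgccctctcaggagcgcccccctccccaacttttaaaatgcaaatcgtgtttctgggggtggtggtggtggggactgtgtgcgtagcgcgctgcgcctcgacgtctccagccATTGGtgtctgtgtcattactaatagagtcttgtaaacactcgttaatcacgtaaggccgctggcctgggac
Krt8, chr15:102004343-102004592 (minus strand): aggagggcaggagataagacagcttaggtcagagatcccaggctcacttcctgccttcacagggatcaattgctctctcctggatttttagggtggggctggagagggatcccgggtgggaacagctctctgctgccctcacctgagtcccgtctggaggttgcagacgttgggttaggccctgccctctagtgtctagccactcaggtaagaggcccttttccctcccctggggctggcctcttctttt
Id2, chr12:25096093-25096342 (minus strand): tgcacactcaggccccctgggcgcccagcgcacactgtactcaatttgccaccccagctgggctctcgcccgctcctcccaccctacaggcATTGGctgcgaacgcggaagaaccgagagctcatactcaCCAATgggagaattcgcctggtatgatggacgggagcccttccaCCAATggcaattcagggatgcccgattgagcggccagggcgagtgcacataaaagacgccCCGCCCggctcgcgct
Cdx2 held 1 CCAAT match, Id2 held 3 and 1 GC box, and Krt8 held none of the 3 motifs in this window. Of 32851 mouse promoters of the same length, 33.9% held a CCAAT match, 32.7% a GC box and 12.4% a TATA box.

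**Figure D3:**
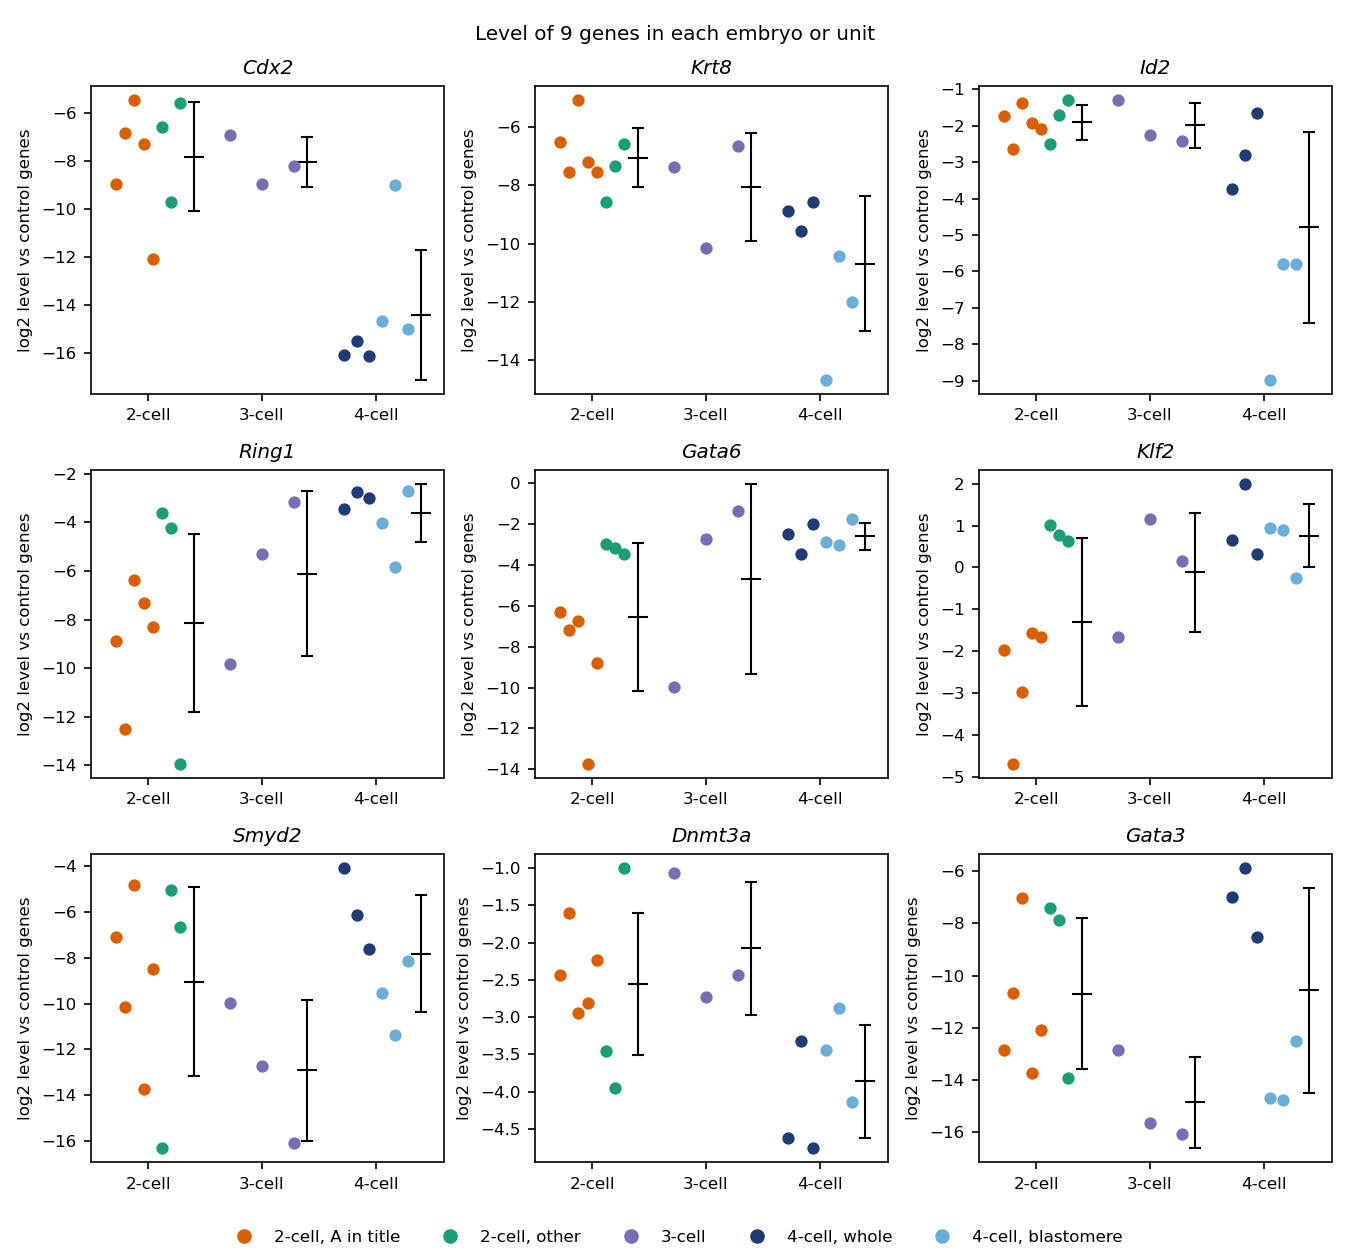
Log2 level relative to the control genes of 9 genes in each unit, one point a unit, with the mean and SD of each stage in black beside the points. For Gata6 and Klf2 the 3 2-cell embryos without an A in the title (green) lie close to the 4-cell embryos, whereas for Cdx2 they lie among the A-titled units (orange).

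Among the genes that passed, Ring1 and Gata6 had the largest rises. Ring1, a catalytic subunit of PRC1, was detected in 11 of 21 samples of 2-cell embryos, 5 of 7 of 3-cell embryos and all 12 of 4-cell embryos. Its 2-cell units ran from -13.94 through -7.81 to -3.61 and its 4-cell units from -5.82 through -3.22 to -2.70. Whole embryos e1 and e2 at the 2-cell stage, at -3.61 and -4.22, lay within the 4-cell range, and e3 was undetected. Ring1 was higher by 4.52 (SE 1.15, adjusted p = 0.0025) with all units and by 3.64 (SE 1.502, adjusted p = 0.14) without the A-titled samples.

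Gata6, a factor of the primitive endoderm, was split by the kind of 2-cell sample. The A-titled units ran from -13.74 to -6.29, and whole embryos stood at -2.99, -3.16 and -3.45. The lowest, A.e3, was undetected, and the averages of A.e1, A.e5 and the unnamed blastomeres include undetected samples. All 4-cell samples gave a signal, so the size of the differences with A-titled units rests partly on upper bounds. The 6 4-cell embryos, at -3.45 to -1.72, overlapped with the whole 2-cell embryos. The difference of 3.97 (SE 0.91, adjusted p = 0.00081) became 0.62 (adjusted p = 0.70) without the A-titled samples and was 6.02 between blastomere samples alone (adjusted p = 1.2e-05). Klf2, a naive pluripotency factor, followed the same order of sets, with A-titled units at -4.69 to -1.56, whole 2-cell embryos at 0.63 to 1.02 and 4-cell embryos at -0.26 to 1.99. Its difference was 2.06 (SE 0.54, adjusted p = 0.0028), and -0.05 (adjusted p = 0.99) without the A-titled samples.

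The remaining higher genes were chromatin regulators. The histone demethylases Kdm1a (1.15, SE 0.26, adjusted p = 0.00071), Kdm3b (1.30, SE 0.31, adjusted p = 0.0012) and Kdm4b (1.14, SE 0.44, adjusted p = 0.041) rose. So did the H3.3 chaperone Hira (1.21), the DNA methyltransferase-associated Dmap1 (1.07), the JmjC protein Jmjd6 (0.99) and the histone acetyltransferase Hat1 (0.75). Kdm1a was nearly constant in the 4-cell embryos (2.04 to 2.58) and in whole 2-cell embryos (2.00, 1.93 and 2.41), and was lower in the 5 A-titled units (-0.36 to 0.81). Of the 11 higher genes 7, Gata6, Klf2, Kdm3b, Kdm1a, Hira, Jmjd6 and Dmap1, differed between A-titled and other 2-cell units, in each case lower in the A-titled ones, and 6 of the 40 lower genes did, all higher in the A-titled ones. The higher genes Ring1, Tead4, Kdm4b and Hat1 did not pass in that contrast. Without the A-titled samples the differences of Kdm1a (0.09, adjusted p = 0.91), Kdm3b (0.15, adjusted p = 0.80), Hira (0.24, adjusted p = 0.78) and Jmjd6 (0.10, adjusted p = 0.93) were at most 0.24, and those of Kdm4b (0.55, adjusted p = 0.61) and Dmap1 (0.50, adjusted p = 0.19) did not pass either. Hira also missed the threshold without 2-cell unit A.e1 alone (0.75, adjusted p = 0.069), in which it was undetected in sample A.e1b1. In the same fit without the A-titled samples Tead4 kept a difference of 0.94 (adjusted p = 0.20) and Hat1 one of 0.62 (adjusted p = 0.19).

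Of 10 pluripotency genes, 3 were lower and 1 (Klf2) higher, with a median of -0.44. These shares and this median lay near those of all genes (25.6% lower, 7.05% higher, median -0.43), and without the A-titled samples none of the 10 was called. Sox2, a core pluripotency factor, ran from -8.49 through -3.84 to -0.74 in the 2-cell and from -10.16 through -6.52 to -4.55 in the 4-cell units, a difference of -2.83 (SE 0.99, adjusted p = 0.027). Pou5f1, which encodes Oct4, was detected in every sample and was lower by a difference of -1.05 (SE 0.29, adjusted p = 0.0046), and of -0.53 (adjusted p = 0.34) without the A-titled samples. Klf4 was lower by -0.99 (SE 0.38, adjusted p = 0.041). Nanog did not pass (0.05, 95% interval -1.84 to 1.94). It was among the genes that differed between the 2-cell sets, by 3.83 (adjusted p = 0.014) towards the A-titled units. Whole embryo e3 was undetected, at -13.94, while e1 and e2, at -7.49 and -6.04, lay within the A-titled range of -8.77 to -3.14. Of the 3 primitive endoderm genes, Gata6 was higher, while Sox17 (-1.11, adjusted p = 0.58) and Pdgfra (-2.91, adjusted p = 0.17) did not pass.

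Among 12 genes of PRC1 and related Polycomb proteins, 5 were lower, 1 (Ring1) was higher and 6 did not pass, with a median of -0.77 against -0.43 over all genes (25.6% lower, 7.05% higher). Phc2 alone of the 12 was called without the A-titled samples. Sfmbt1, an MBT-domain protein, ran from 0.78 to 3.08 in the 2-cell and from -0.05 to 0.63 in the 4-cell units, a difference of -1.70 (SE 0.37, adjusted p = 0.00041). Scmh1, of the Sex comb on midleg group, differed by -1.38 (SE 0.29), the Polyhomeotic gene Phc2 by -0.87 (SE 0.27), and Rnf2, the paralog of Ring1, by -0.88 (SE 0.25, adjusted p = 0.0068). Rnf2 was detected in every sample, and its fall stood beside the rise of Ring1. Cbx7, a chromodomain reader, was detected in 5 of 21, 4 of 7 and 2 of 12 samples, and its difference of -2.72 (adjusted p = 0.021) was -0.65 (adjusted p = 0.19) with values below -10 set to -10. Bmi1 (-0.57, adjusted p = 0.073) did not pass.

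Among 9 genes of PRC2 and the H3K27 demethylases, 4 were lower and none was higher, with a median of -0.55 against -0.43 over all genes (25.6% lower, 7.05% higher). Kdm6b alone of the 9 was called without the A-titled samples. The demethylase Kdm6b ran from -2.72 through -1.27 to -0.50 in the 2-cell and from -3.97 through -3.39 to -1.96 in the 4-cell units, with the 3-cell embryos at -1.43, -2.41 and -2.56. Its difference was -1.80 (SE 0.29, adjusted p = 7.3e-06), and -1.38 (adjusted p = 0.049) without the A-titled samples. Its paralog Kdm6a did not pass (-0.46, adjusted p = 0.20). Suz12, a core PRC2 subunit, was lower by -0.93 (SE 0.20, adjusted p = 0.00041), and by -0.53 (adjusted p = 0.17) without the A-titled samples. The catalytic subunits Ezh1 (0.22, adjusted p = 0.49) and Ezh2 (-0.41, adjusted p = 0.064) and the subunit Eed (0.35, adjusted p = 0.17) did not pass. The cofactors Jarid2 (-0.76, adjusted p = 0.045) and Phf19 (-3.09, adjusted p = 0.041) were lower. For Jarid2 the 4-cell embryo e6, with 1 of 4 blastomeres undetected, stood at -4.94 against -2.13 to -1.71 in the other 5, and without it the difference was -0.26 (adjusted p = 0.41). With the 11 unnamed 2-cell blastomeres as 11 units it turned to 0.22. Phf19 was detected in 11 of 21, 6 of 7 and 5 of 12 samples and gave -1.44 (adjusted p = 0.072) with values below -10 set to -10.

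**Figure D4:**
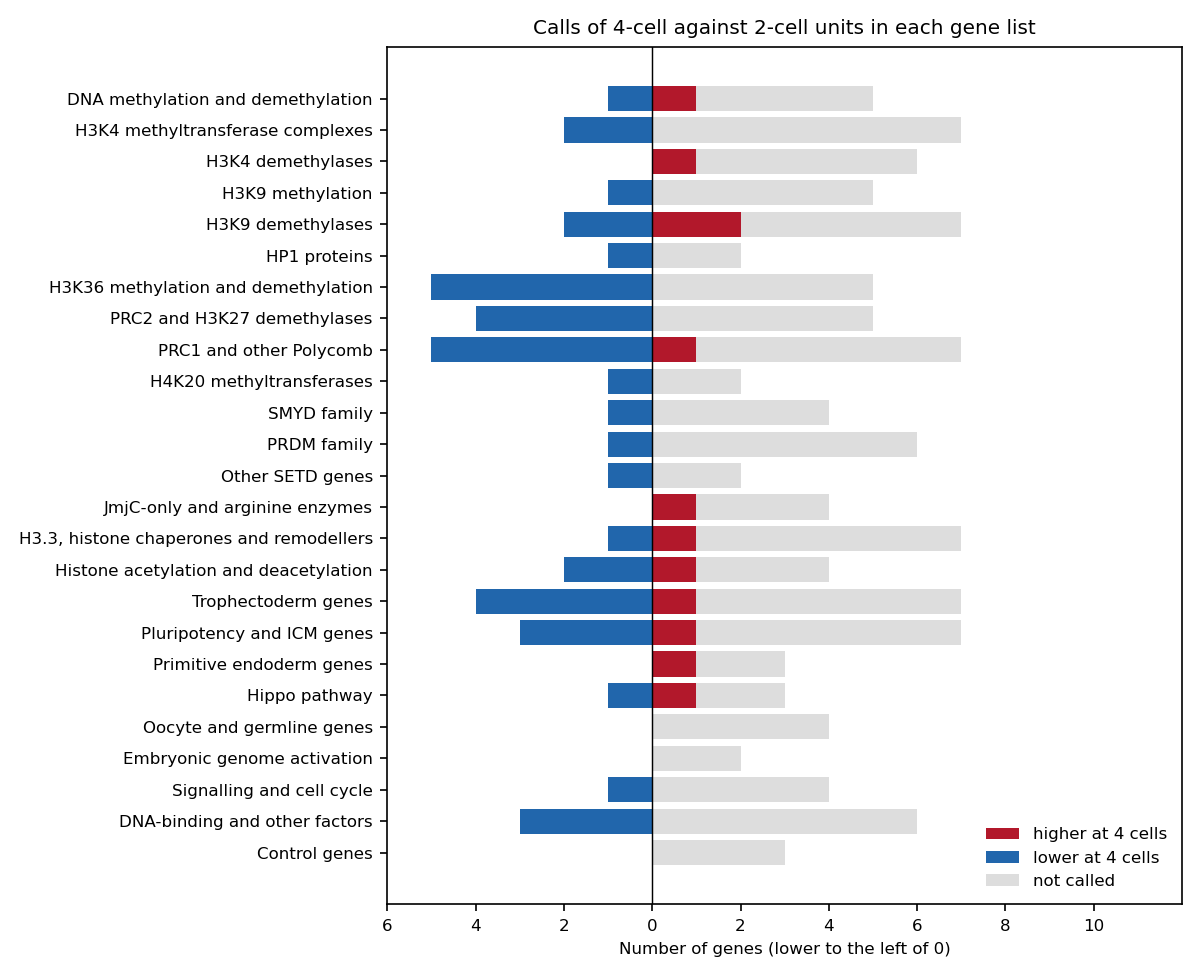
Number of genes in each of 25 gene lists that were lower (blue, left of 0), higher (red) or not called (grey) in 4-cell against 2-cell units at an adjusted p of 0.05. The H3K36 list and the PRC1 list hold 5 lower genes each, and no list holds more than 2 higher genes.

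The H3K36 list had 5 lower and no higher gene among 10, with a median of -0.50, close to the -0.43 over all genes (25.6% lower, 7.05% higher). The lower members were the SET-domain genes Nsd1 (-0.90), Whsc1 (-1.09), Whsc1l1 (-1.18), Ash1l (-0.74) and Setd3 (-1.31), while Setd2 (-0.25, adjusted p = 0.91) did not pass. None of these 5 was called without the A-titled samples, where Whsc1 gave -0.58 (adjusted p = 0.37), Whsc1l1 -0.38 (adjusted p = 0.57) and Setd3 -0.40 (adjusted p = 0.49). Setd6, a lysine methyltransferase, was one of the 3 genes without overlap, with 2-cell units at -3.03 to -1.06 and 4-cell units at -4.41 to -3.27. Its difference was -1.68 (SE 0.27, adjusted p = 7.3e-06), and -1.12 (adjusted p = 0.049) without the A-titled samples. Kdm2a, an H3K36 demethylase, passed in that fit (-0.84, adjusted p = 0.049), against -0.01 with all units.

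In the H3K9 lists, the methyltransferase Suv39h2 was lower (-1.64, SE 0.48, adjusted p = 0.0082) and the other 5 genes of that list did not pass. Suv39h2 stood at -0.35 to 0.81 in the A-titled units, at -2.08, -2.13 and -1.0002 in whole 2-cell embryos and at -2.55 to -1.79 in 4-cell embryos, and its difference without the A-titled samples was -0.40 (adjusted p = 0.75). Of 9 H3K9 demethylase genes 2 were higher (Kdm3b, Kdm4b) and 2 lower (Kdm4a, -0.71, and Phf8, -0.87), with a median of -0.45. Over all genes 25.6% were lower and 7.05% higher, with a median of -0.43. In the list of 9 H3K4 methyltransferase genes Mll2 (-0.84) and Setd1a (-0.65) were lower, with a median of -0.71, and Setd1a gave -0.27 (adjusted p = 0.62) without the A-titled samples. Of the 6 H3K4 demethylases Kdm1a was higher, none was lower, and the median was 0.61. Without the A-titled samples that median turned to -0.29 and none of the 6 was called. Kdm1b, the paralog of Kdm1a, did not pass with all units (-0.85, adjusted p = 0.07).

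Smaller lists held few calls, where over all genes 25.6% were lower and 7.05% higher. The HP1 gene Cbx1 was lower (-0.56, adjusted p = 0.015, and -0.34, adjusted p = 0.32, without the A-titled samples), and Cbx3 (0.48, adjusted p = 0.72) and Cbx5 (0.06, adjusted p = 0.82) did not pass. Of the 3 H4K20 methyltransferases Suv420h1 was lower (-0.97, adjusted p = 0.025), with 0.08 (adjusted p = 0.95) without the A-titled samples. Of the 7 PRDM genes Prdm15 was lower (-1.90, adjusted p = 0.031). Among histone acetylation genes Hat1 was higher, and the deacetylase Sirt1 (-1.11) and the adaptor Tada3 (-1.67) were lower, at -0.60 (adjusted p = 0.36) and -0.44 (adjusted p = 0.78) without the A-titled samples. The remodeller Atrx was lower (-0.78, adjusted p = 0.012) and the chaperone Hira higher in the list of 8 H3.3 and chaperone genes, in which H3f3a (0.46, adjusted p = 0.17) and H3f3b (0.06, adjusted p = 0.98) did not pass. The kinase gene Mapk3, which encodes Erk1, was lower by -2.51 (SE 0.36, adjusted p = 9.0e-07) with all units and by -1.03 (adjusted p = 0.069) without the A-titled samples. Among the DNA-binding factors the chromatin organiser Satb1 (-0.53) was lower along with Dlx1, and gave -0.25 (adjusted p = 0.62) without the A-titled samples. No gene of the oocyte and germline list (Dazl, ZP3, Brdt, Dppa3) or of the genome activation list (Eif1a, Xist) passed in limma, and Dazl differed by -1.71 (adjusted p = 0.17).

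Dlx1, a homeobox factor of later neural development, had the largest fall among the genes that passed. It was detected in 11 of 21 samples of 2-cell embryos and in 1 sample each of 3-cell and 4-cell embryos. The 2-cell units ran from -13.94 through -7.18 to -4.61, and the 4-cell units from -16.09 through -15.12 to -12.61. The difference was -6.75 (SE 1.40, adjusted p = 0.00039), -5.91 (adjusted p = 0.049) without the A-titled samples and -2.62 (adjusted p = 0.0024) with values below -10 set to -10. Smyd1, of the SMYD methyltransferase family, was also lower (-2.28, adjusted p = 0.031), although a single 2-cell sample and none of the 3- or 4-cell samples gave a signal, and it gave -0.21 (adjusted p = 0.64) with values below -10 set to -10.

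The choice of control genes set how many genes fell. All 11 higher genes were higher under each of the 6 other scalings tried, and 19 of the 40 lower genes were lower under each. A scaling subtracts 1 value from each sample, so it moves the difference of every gene by the same amount. Which genes turn therefore follows from the size of their difference, and keeping the sign is no test of a single gene. With no normalization, that is on 30 minus Ct alone, the median over all genes was 0.85 and 21 of the 40 turned positive. With each sample's median as the reference the median was -0.09, 25 genes were higher and 21 lower, and none of the 40 turned. The lower calls are therefore statements relative to the control genes. The 3 control genes did not pass between 2-cell and 4-cell units (Hnrnpr -0.19, Ssu72 -0.19 and Ube2e1 0.38, adjusted p = 0.37, 0.38 and 0.078). Their levels are relative to their own mean, so this cannot show a change that all 3 share. With no normalization the median of the 3 was 1.09, against 0.85 over all genes.

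Whether the change between stages differed between whole embryos and blastomere samples was tested as an interaction. With limma no gene passed (0 of 156, 0.0%), and 24 had an unadjusted p under 0.05. Between blastomere samples alone, 5 units against 3, 61 genes (39.1%) passed, 17 higher (10.9%) and 44 lower (28.2%), and between whole embryos alone, 3 against 3, Cdx2 passed. All samples labelled 2-cell blastomeres carry an A in the title, so the 2 kinds of sample also differ in that letter. For A.e1, A.e2 and A.e3 the title names no blastomere, so their place among the blastomere samples rests on the label alone.

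The 3-cell embryos were set against both neighbours, with 3 units of 3, 3 and 1 samples. Between the 2-cell and the 3-cell stage 14 genes (8.97%) passed, 3 higher (1.92%) and 11 lower (7.05%), and between the 3-cell and the 4-cell stage 6 (3.85%) passed, 3 in each direction (1.92%). A further test found 5 genes (3.21%) off the midpoint of the 2-cell and 4-cell means. Ssu72 (-1.04, SE 0.20, adjusted p = 0.00047) and Ube2e1 (0.81, SE 0.20, adjusted p = 0.015), both control genes, lay on opposite sides of it, among 3 lower (1.92%) and 2 higher (1.28%) genes. In the 7 samples of 3-cell embryos the Ct of Ssu72 exceeded that of Ube2e1 by 2.59 to 4.26 cycles, against -0.28 to 2.11 in the 2-cell and 0.06 to 2.87 in the 4-cell samples. Every 3-cell level rests on the mean of these genes, and leaving out Ssu72 as a control gave 38 calls between the 2-cell and 3-cell stages and 15 genes off the midpoint. On 30 minus Ct without normalization no gene lay off the midpoint and none passed between the 2-cell and 3-cell stages.

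The other 3 genes off the midpoint were the methyltransferase gene Smyd2, the trithorax-related gene Mll5 and the demethylase family gene Jmjd1c. Mll5 stood at -7.24, -10.79 and -5.24 in the 3-cell embryos against medians of -4.71 and -4.61 in the 2-cell and 4-cell units, which placed it -2.80 off the midpoint (SE 0.77, adjusted p = 0.020). It was detected in 20 of 21, 5 of 7 and 11 of 12 samples. Jmjd1c stood at 1.91, 0.40 and 1.32 against medians of -0.08 and 0.25, or 1.24 above the midpoint (SE 0.32, adjusted p = 0.017). Other genes lower in 3-cell than in 2-cell units were the methyltransferase genes Setd1a (-1.02), Setd1b (-1.41), Mll1 (-5.11), Setd6 (-1.05) and Whsc1 (-1.16), the PRC1 gene Pcgf1 (-1.35) and the T-box gene Tbx3 (-1.14). Mll1 stood at -6.87, -13.13 and -16.08 in the 3-cell embryos, the last an undetected sample, so the size of its difference rests partly on upper bounds. Kdm1a was higher by 1.01. Without the A-titled samples none of the 14 passed, with 0 of 156 genes (0.0%) called in limma and 22 at an unadjusted p under 0.05. These counts rest on few embryos: without 3-cell embryo e1, e2 or e3 the 14 calls became 24, 3 and 5, and the 5 genes off the midpoint became 11, 2 and 3. Cdx2 (-6.33, adjusted p = 0.018) and Scmh1 (-1.30, adjusted p = 0.049) fell between the 3-cell and the 4-cell stage.

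Smyd2, a lysine methyltransferase that acts on histones and other proteins, was detected in 14 of 21 samples of 2-cell embryos, 2 of 7 of 3-cell embryos and 8 of 12 of 4-cell embryos. Its mean was -9.05 ± 4.13 (SD, n = 8), -12.92 ± 3.06 (SD, n = 3) and -7.82 ± 2.54 (SD, n = 6) in that order. The 2-cell units spanned -16.31 to -4.85 and overlapped with all but the highest of the 4-cell units, which ran from -11.36 to -4.10. Between the 2-cell and 4-cell stage Smyd2 did not differ beyond this spread (1.23, 95% interval -0.82 to 3.28, two-sided exact permutation p = 0.54, unadjusted). It was lower in 3-cell than in 2-cell units (-3.87, SE 1.28, adjusted p = 0.047) and higher in 4-cell than in 3-cell units (5.10, SE 1.34, adjusted p = 0.019). The 3-cell units stood at -9.97, -12.72 and -16.08, of which the last is one undetected sample.

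Dnmt3a, a de novo DNA methyltransferase, was detected in all 40 samples. Its mean was -2.55 ± 0.96 (SD, n = 8) in 2-cell, -2.08 ± 0.89 (SD, n = 3) in 3-cell and -3.86 ± 0.76 (SD, n = 6) in 4-cell units. Of the 8 2-cell units 7 lay above the median of the 4-cell embryos, -3.79, and whole 2-cell embryos e1 and e2, at -3.45 and -3.95, lay within their range. The fall between the 2-cell and 4-cell stage was -1.31 (SE 0.41, adjusted p = 0.013, two-sided exact permutation p = 0.020, unadjusted), and -1.06 (adjusted p = 0.23) without the A-titled samples. Between the 3-cell and 4-cell stage it was -1.78 (SE 0.53, adjusted p = 0.049). In the same list of 6 genes Dmap1 was higher, and Dnmt3b (-0.21, adjusted p = 0.61), Hells, Tet1 and Tet3 did not pass, at -0.55, -0.68 and -0.45.

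Gata3, a trophectoderm factor, was detected in 5 of 21 samples of 2-cell embryos, in none of 7 of 3-cell embryos and in 4 of 12 of 4-cell embryos. Its mean was -10.69 ± 2.89 (SD, n = 8) in 2-cell and -10.56 ± 3.93 (SD, n = 6) in 4-cell units, and the difference of 0.14 (95% interval -2.11 to 2.38) was within the spread (two-sided exact permutation p = 0.94, unadjusted). All 3 whole 4-cell embryos gave a signal, at -6.99, -5.89 and -8.51, as did 2 of 3 whole 2-cell embryos, at -7.39 and -7.87. Of the blastomere samples 1 of 9 at the 4-cell stage and 3 of 18 at the 2-cell stage did. The 3-cell samples, all blastomeres, gave only upper bounds, and the fitted difference from the 2-cell units (-4.17, adjusted p = 0.049) rests on them.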

How the data were processed

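Single cells or embryos were placed in one-step reverse transcription and preamplification mix and read on BioMark qPCR chips. The deposited Ct values (used as a score in cycles) of 192 genes in 189 samples stand at 30 where nothing was detected. The deposited log2 table, inverted Ct less the mean of Gapdh, Hspa8 and Lmnb1 as computed from the Ct values, gave the authors' quality call per gene and served as an alternative. The 3 genes it is relative to carry the call FAIL. Here levels of the 156 PASS genes were computed from Ct relative to Hnrnpr, Ssu72 and Ube2e1, and blastomeres of one embryo were averaged. Limma 3.58.1 in R 4.3.3 was fitted to 58 units (168 samples, MII oocyte to 32-cell stage) with stage as the group and no covariate, with Benjamini-Hochberg adjustment over 156 genes, and was tested on simulated data. Whole embryos and blastomere samples were separate groups in the interaction fit, and A-titled and other 2-cell units in the fit that compares them. Exact permutation tests, two-sided, used the 3003 splits of the 8 and 6 units, with a smallest p of 0.00033. Depth is unknown for Ct values, so precision rests on the number of embryos. The titles name the embryos, except for the pooled 2-cell blastomeres and, with certainty, the samples of unit A.e1. Equal replicate numbers at different stages correlated at -0.45 to 0.37 and were not treated as pairs. Named genes were the markers Smyd2, Dnmt3a and Gata3, all higher genes, the 15 most negative lower genes, up to 4 further members of each list (all members of lists of up to 6), the genes passing in the 3-cell comparisons and the control genes, and some of these are not reported here. The members and lists were chosen with earlier results of these data known. All 156 symbols matched RefSeq, 12 through a synonym and 5 apart from letter case.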

Additional observations from a re-analysis of the deposited data

Results flagged for a closer look

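Of 106 sets of 2-cell or 4-cell units of the 51 called genes, Smyd2 and Gata3, 7 had 1 unit far from the others. How often chance alone gives such a unit was not computed, and the sets share units and control genes. Some of the sets, such as those of Cdx2, Hira, Jarid2 and Krt19, hold undetected values, which are only bounds. At the 4-cell stage Cdx2 stood at -9.00 in embryo e5 against -16.09 to -14.67 in the other 5. Jarid2, a PRC2 cofactor, stood at -4.94 in embryo e6 against -2.13 to -1.71. Cbx1 stood at -1.52 in embryo e4 against -2.72 to -2.37, Rnf2 at 0.12 in embryo e2 against -0.98 to -0.68, and Whsc1l1 at -1.07 in embryo e1 against -0.52 to -0.22. At the 2-cell stage Hira stood at -5.66 in embryo A.e1, an average that includes the undetected sample A.e1b1, against -2.91 to -1.24. Krt19 stood at -5.36 in embryo e3, a signal, against upper bounds or averages of -16.31 to -12.07 in the others.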

How the results depend on the processing

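The 4-cell against 2-cell comparison gave 51 genes, 11 higher and 40 lower. All 51 were called again without 2-cell embryo e2 and without 3-cell embryo e1 or e3, 50 with a trend and robust prior or with 2c.A.e1 as a unit of its own, and 47 with values below -10 set to -10. The count was 32 (5 higher) in a fit of 2-, 3- and 4-cell embryos only, 6 (0 higher, 6 lower) without the A-titled samples, 1 (lower) with whole embryos only, also with no normalization, and 17 (1 higher, 16 lower) by the exact permutation test. With the replicate number as a replicate block, 0 genes were higher or lower in any comparison, against 9 lower genes, none higher, in the same embryos without the block. The samples share only a number, and same-numbered samples correlated at -0.45 to 0.37. Higher genes were 25 with sample medians, 33 with no normalization, 6 in the deposited table, 19 with every sample as a unit, 17 with the 11 unnamed blastomeres as 11 units and 17 with blastomere samples only, and lower genes were 22 without Ube2e1, 21 with sample medians and 3 with no normalization. Leaving out 1 unit gave 38 to 60 changed, 7 to 15 higher and 27 to 45 lower genes, the 7 without 2-cell embryo A.e1.

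The 14 genes of the 2-cell to 3-cell comparison became 3, 38 and 8 without Hnrnpr, Ssu72 and Ube2e1, 8 with sample medians, 0 with no normalization, 1 in the deposited table, 0 in the fit of 2-, 3- and 4-cell embryos only, 9 with the embryo as a random block, 32 with blastomere samples only, and 0 without the A-titled samples and in the embryos of the block. Leaving out 1 unit gave 3 to 24, with 3 without the unnamed blastomeres, 6, 5, 7 and 7 without A.e1, A.e2, A.e3 and A.e5, and 24, 3 and 5 without 3-cell embryos e1, e2 and e3. The 6 genes between 3-cell and 4-cell embryos became 21 without Ube2e1, 1 with no normalization, 16 in the deposited table, 0 in the fit of 2-, 3- and 4-cell embryos only, 15 with every sample as a unit, 3 with the embryo as a random block, 1 with 11 blastomere units, 3 with 2c.A.e1 alone, 11 with blastomere samples only, 0 in the embryos of the block, and 2 to 8 on leaving out 1 unit, with 3 without 2-cell A.e3 or A.e5 or 4-cell e3 or e6 and 2 without 3-cell e1. The 5 genes off the midpoint became 15 and 12 without Ssu72 and Ube2e1, 0 with no normalization, 1 in the deposited table, 0 in the fit of 2-, 3- and 4-cell embryos only, 2 without the A-titled samples, 0 in the embryos of the block, and 2 to 11 on leaving out 1 unit. The interaction, with 0 genes, gave 5 and 1 without Ssu72 and Ube2e1, 3 with sample medians, 4 with values below -10 set to -10, 2 with a trend and robust prior, and 0 to 4 on leaving out 1 unit, with 2, 4 and 2 without 2-cell A.e2, A.e3 and e3.

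Signs turned, with no reversed value past the threshold, as follows. With no normalization: Ash1l 0.54, Atrx 0.50, Cbx1 0.72, Jarid2 0.52, Kdm4a 0.58, Klf4 0.29, Mll2 0.44, Nsd1 0.38, Phc2 0.42, Phf8 0.42, Pou5f1 0.23, Rnf2 0.40, Satb1 0.76, Setd1a 0.63, Sirt1 0.17, Suv420h1 0.31, Suz12 0.35, Whsc1 0.19, Whsc1l1 0.10, Yap1 0.17. With no normalization in whole embryos only: Jarid2 0.10, Mll2 0.0017, Pou5f1 0.31, Satb1 0.016, Setd1a 0.18, Setd3 0.12, Suv420h1 0.35. With whole embryos only: Kdm1a -0.054, Kdm3b -0.029. Without the A-titled samples: Kdm1a -0.048 (2-cell to 3-cell), Klf2 -0.052, Suv420h1 0.076. With 11 blastomere units: Jarid2 0.22. The cause was not tested. Undetected values are bounds, the 3-cell stage has 3 embryos, and kind of sample, the A label and the amount of RNA cannot be told apart at the 2-cell stage.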
